A study of Homo sapiens with 6 samples.

Results

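RNA that came down with thymidylate synthase (TS) was set against RNA held by plain beads, in raltitrexed-treated HCT116-UGI cells, a colon cancer line. The comparison is a ratio between 1 TS immunoprecipitate (TS-RIP) and 1 bead control (RIPctr) of the same treatment, out of 6 libraries in the series, and it is described across the 10353 genes of a table of 42822 entries whose mean over the 2 libraries was above 5000. The cells were HCT116-UGI, a mismatch repair-deficient colon adenocarcinoma line made to express UGI, a protein inhibitor of the uracil-DNA glycosylase UNG, and all groups share this background. The tested group received 100 nM raltitrexed (RTX), an antifolate that inhibits TS, for 48 h. The other pairs of TS-RIP and RIPctr came from cells given 20 µM 5-fluoro-2'-deoxyuridine (5FdUR), whose phosphorylated form inactivates TS, and from untreated cells (NT), also 48 h. RIPctr is the RNA bound by Protein A/G beads in the pre-clearing step, before any antibody was added, so it is neither an IgG precipitate nor an input, and no input library was analysed here. Cytoplasmic and nuclear extracts were combined before the pre-clearing, and TS-RIP was made from the lysate left after the control beads were removed.

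TS makes dTMP from dUMP, the only route by which cells make thymidylate from scratch, and it is also an RNA-binding protein that represses translation of its own mRNA. Binding of folate analogues and of fluorinated nucleotides to the enzyme is known to alter that RNA binding. RNA immunoprecipitation followed by sequencing lists the RNAs recovered in the precipitate of a protein, whether or not the protein holds them. A ratio to beads tells which of them had more fragments in the precipitate than on the matrix alone once the libraries are scaled to each other. It does not give amounts of RNA.

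With 1 library a side there is no replicate spread, so no p-value is given, and each ratio carries a 95% interval that covers the counting of fragments alone. Values are fragment counts that the authors scaled between libraries with no correction for transcript length, so levels are not compared between genes of different length. The TS-RIP library held 11042691 fragments on 18529 genes, and RIPctr held 7903472 fragments on 21375 genes. The minimum of 5000 corresponds to about 51.9 fragments in TS-RIP and 40.2 in RIPctr. The 4 libraries of the other treatments held 7051104 to 11657293 fragments. Of 15 markers of colon epithelium, 5 were above the minimum (KRT8, KRT18, EPCAM, CDH1 and CDX2), 8 were below it and 2 were in merged entries. MUC2 and TFF3 were listed at 0. None of 8 blood cell markers and 6 endothelial markers reached the minimum. Of 8 fibroblast markers 1 did, COL1A1, with a ratio of -0.70, and of 6 liver markers 1 did, SERPINA1, with a ratio of 0.39.

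All ratios are log2 of TS-RIP over RIPctr, each value plus 100. A gene is called higher or lower when the ratio is past 1.5-fold, and firmly so when its whole counting interval is. A ratio reads both libraries at once, so more RNA on TS and less RNA on the beads cannot be told apart. The beads had also taken their RNA from the lysate before TS-RIP was made, and the part of this in the ratios was not tested. Across the 10353 genes the median ratio was 0.04, and 5% of genes lay below -0.64 and 5% above 0.51. The counting interval lay wholly above 0 for 28% of genes and wholly below 0 for 20.9%. TS-RIP was higher for 267 genes (2.58%) and lower for 621 (6%). Firm calls numbered 31 higher (0.299%) and 214 lower (2.07%). The lower side was therefore larger and reached further, to -7.12 against 2.03 on the higher side. The balance of the calls depended on the scaling between the libraries: of all calls, 30.1% were higher as deposited, 8.72% with both libraries set to the same total (89 higher and 932 lower), and 45.0% with TMM factors (418 higher and 512 lower).

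**Figure D1:**
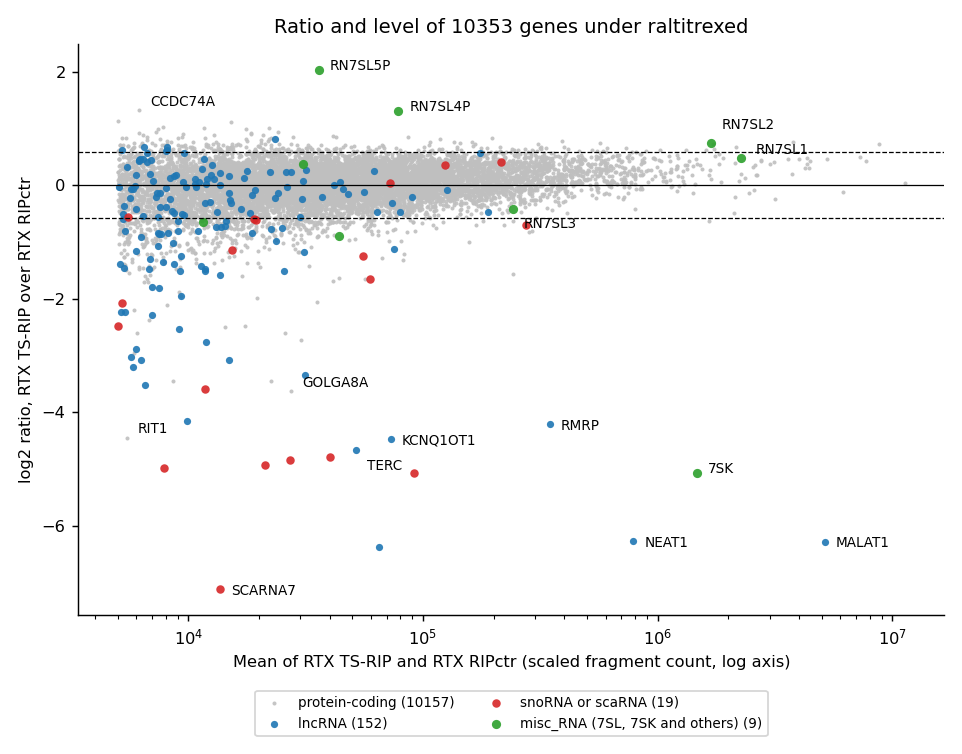
Ratio of RTX TS-RIP over RTX RIPctr (log2, y axis) against the mean of both libraries (scaled fragments, log axis) for the genes above 5000, coloured by gene type; dashed lines mark 1.5-fold and 16 genes of other types are not drawn. Most genes lie between the dashed lines, and the points below -4 are non-coding RNAs, with 1 protein-coding exception, RIT1 at -4.46.

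The RNA farthest above the beads was a copy of 7SL, the RNA core of the signal recognition particle, which halts nascent secretory proteins and brings their ribosomes to the endoplasmic reticulum. The files list 5 such entries with enough fragments that are not joined to a protein-coding gene, namely the genes RN7SL1, RN7SL2 and RN7SL3 and the pseudogenes RN7SL4P and RN7SL5P. These copies share long stretches, so one sequencing read can fit several of them. Upstream, reads were filtered for unique mapping through a minimum mapping quality of 1, a value that the aligner HISAT2 also gives to reads that fit several places, so the split of fragments between copies is uncertain.

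RN7SL5P had a value of 57721 in TS-RIP and 14062 in RIPctr under RTX (599 and 113 fragments), a ratio of 2.03 (95% interval 1.75 to 2.34) and the highest of all genes described. RN7SL4P had 111781 in TS-RIP and 45298 in RIPctr, a ratio of 1.30 (1.13 to 1.48). RN7SL2, whose entry is merged with an unnamed gene, had 2108900 in TS-RIP and 1267480 in RIPctr, a ratio of 0.73 (0.70 to 0.77). These 3 were the entries of the class misc_RNA that were firmly higher, out of 9. RN7SL1 had 2636290 in TS-RIP and 1892450 in RIPctr, a ratio of 0.48 (0.45 to 0.51), above 0 but short of 1.5-fold. RN7SL3 stood on the other side of 0, with 206023 in TS-RIP and 277515 in RIPctr and a ratio of -0.43 (-0.52 to -0.34). Summed over the 5 entries, 7SL had 5120715 in TS-RIP and 3496806 in RIPctr, a ratio of 0.55 (0.53 to 0.57).

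In the other pairs no 7SL entry was higher in the precipitate, and the summed 7SL ratio was -0.94 under 5FdUR and -0.99 in NT. RN7SL1 had 3862540 in TS-RIP and 7548280 in RIPctr under 5FdUR, and 4124830 and 8142990 in untreated cells, ratios of -0.97 and -0.98. RN7SL2 had ratios of -0.89 under 5FdUR and -0.95 in NT, RN7SL3 of -1.22 and -1.08, RN7SL4P of -1.09 and -1.29, and RN7SL5P of -0.17 and -2.38. The TS-RIP values of RN7SL1 and RN7SL2 were thus lower under RTX than in NT, and their RIPctr values were lower still: 1892450 under RTX against 8142990 in NT for RN7SL1, and 1267480 against 6464520 for RN7SL2. Both libraries of the ratio enter these differences. The ratio under RTX minus that in NT was 4.41 (counting interval 4.09 to 4.73) for RN7SL5P, 2.59 (2.39 to 2.79) for RN7SL4P, 1.69 (1.65 to 1.73) for RN7SL2 and 1.46 (1.43 to 1.49) for RN7SL1.

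**Figure D2:**
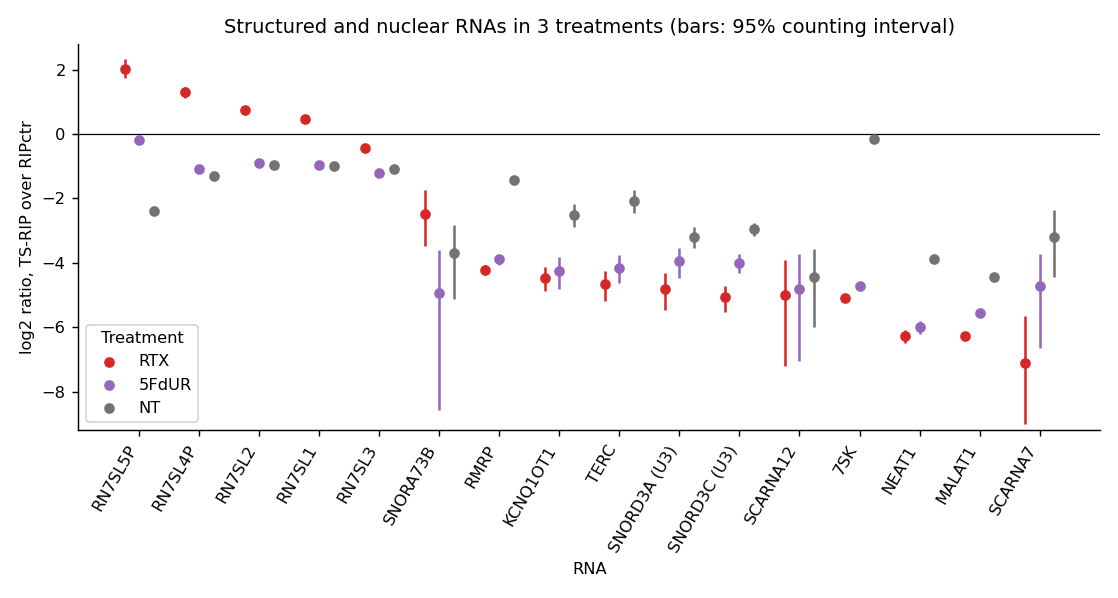
Ratios of TS-RIP over RIPctr (log2, y axis) of structured RNAs and nuclear lncRNAs under RTX, 5FdUR and NT, with 95% counting intervals as bars; the lower bound of SCARNA7 under RTX, -13.45, is cut at -9. The copies RN7SL5P, RN7SL4P, RN7SL2 and RN7SL1 lie above 0 under RTX, and the nuclear RNAs lie far below 0, with 7SK near 0 in NT.

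RNAs that reside in the nucleus lay at the other end. MALAT1, a lncRNA of nuclear speckles, had a value of 131246 in TS-RIP and 10227700 in RIPctr, 77.9 times lower in the precipitate, with a ratio of -6.28 (-6.36 to -6.21). It took 0.0123% of the TS-RIP values and 1.04% of those in RIPctr, where it was among the most abundant entries. NEAT1, the scaffold of paraspeckles, had 19947 in TS-RIP and 1557570 in RIPctr, also -6.28 (-6.49 to -6.09). Both entries are merged with a second short gene in the files. KCNQ1OT1, an imprinted antisense transcript that stays on its chromatin, had 6167 in TS-RIP and 139504 in RIPctr, a ratio of -4.48 (-4.89 to -4.14). Of the 16 nuclear lncRNAs in a fixed list, 7 were above the minimum and all 7 were lower, 6 of them firmly, with a median of -3.71, while 3 were below it, 5 were in merged entries and 1 was not found. LINC-PINT, in an entry of the class miRNA, stood at -3.71 and FTX at -2.53. The entries of TUG1 and JPX, both of the class misc_RNA and the first holding 5 genes, were the closest to 0 at -0.90 and -0.64. In the other pairs 5 of the 7 were lower under 5FdUR and 6 in NT. MALAT1 had a ratio of -5.57 under 5FdUR and -4.43 in NT, and NEAT1 -5.99 and -3.89, while the TUG1 entry stood at -0.47 and 0.03 and the JPX entry at -0.05 and -1.23.

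Structured RNAs of nuclear complexes shared that position. 7SK, which holds the transcription elongation factor P-TEFb in an inactive complex, is listed in the files as AL162581.1 (chr6:52995620-52995950, GRCh38). It had 84606 in TS-RIP and 2863250 in RIPctr under RTX, a ratio of -5.08 (-5.18 to -4.98), and 119795 against 3143350 under 5FdUR, a ratio of -4.71. In NT it had 535345 in TS-RIP and 597372 in RIPctr, a ratio of -0.16 (-0.21 to -0.11), so that the RTX ratio was lower by 4.92 with a counting interval of the difference of -5.03 to -4.81. RMRP, the RNA of the RNase MRP that processes ribosomal RNA, had 35365 in TS-RIP and 659066 in RIPctr, a ratio of -4.22 (-4.38 to -4.07), against -3.89 under 5FdUR and -1.44 in NT. TERC, the template RNA of telomerase, had 3855 in TS-RIP and 100179 in RIPctr, a ratio of -4.66 (-5.20 to -4.24), against -4.15 under 5FdUR and -2.08 in NT.

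U3, a small nucleolar RNA needed for the first cuts of the ribosomal RNA precursor, is listed under several near-identical copies. SNORD3C had 5204 in TS-RIP and 177958 in RIPctr, a ratio of -5.07, and SNORD3A had 2698 and 77779, a ratio of -4.80. Their NT ratios were -2.96 and -3.19. SCARNA7, a guide RNA of Cajal bodies that directs modification of spliceosomal RNA, had 1 fragment in TS-RIP and 219 in RIPctr, a ratio of -7.12 with an interval of -13.45 to -5.65, and SCARNA12 had 4 and 123, a ratio of -4.99. SNORA73B was the exception to the order of treatments, at -2.49 under RTX, -4.93 under 5FdUR and -3.68 in NT. Among the 17 entries of the class snoRNA none was higher. The 7 that hold 1 gene were all lower, with a median of -4.84, and of the 10 merged with other genes, mostly host lncRNAs that are also counted in the list of snoRNA hosts, 6 were lower, with a median of -0.60. In a fixed list of 39 structured small RNAs, 8 were above the minimum, of which RN7SL2 was higher and 6 were lower, with a median of -4.44. The vault and Y RNAs of that list were listed at 0. In all, 22 members did not reach the minimum, 5 were in merged entries and 4 were not found.

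Long non-coding RNAs as a class stood low. Of 152 above the minimum, 58 were lower, 39 firmly, and 6 were higher, none firmly. Their median was -0.34, against 0.04 for 10157 protein-coding genes, and -0.18 under 5FdUR and -0.06 in NT. They made up 0.245% of the TS-RIP values and 1.61% of those in RIPctr, a share to which MALAT1 alone gave 1.04 points. AL356488.2 (chr1:109100193-109100619, GRCh38) had 1445 in TS-RIP and 128553 in RIPctr, a ratio of -6.38, and the host of a microRNA cluster, AC020916.1, stood at -4.15.

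LncRNAs that host small nucleolar RNAs in their introns and are spliced and exported were split. Of 26 listed, 16 were above the minimum with an entry that could be read, of which 8 were lower and none higher, and the median was -0.54. With a minimum of 20000 the median of this list was 0.0625. The entry that joins SNHG10 with SCARNA13 stood at -3.58, SNHG5 with SNORD50B at -1.66, SNHG1 at -1.25 and SNHG8 at -1.17. SNHG29 stood at 0.36, SNHG16 at 0.40 and SNHG6 at 0.56 (0.45 to 0.66), the last with 209300 in TS-RIP and 142117 in RIPctr. Where an entry joins a host with its small RNA, the fragments of both are counted together. Among the 4 measured cytoplasmic lncRNAs, NORAD, which binds Pumilio proteins, stood at -0.47 and UCA1 at 0.37, and NUTM2A-AS1 and HCG18 were lower, at -1.39 and -0.85.

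Protein-coding genes gave 258 higher and 541 lower calls, of which 28 and 156 were firm. The lowest were a small set with few fragments in the precipitate. RIT1, a Ras-related GTPase, had 385 in TS-RIP and 10578 in RIPctr (4 and 85 fragments), a ratio of -4.46 (-6.69 to -3.37). GOLGA8A and GOLGA8B, near-identical golgin copies on chromosome 15, had 4047 and 3662 in TS-RIP against 50898 and 41192 in RIPctr, ratios of -3.62 and -3.46. The ankyrin repeat copies ANKRD36B, ANKRD36C and ANKRD36 stood at -3.46, -2.60 and -2.50, and ARHGAP11B, a partial duplicate of ARHGAP11A, at -2.48 (-2.96 to -2.07). Fragments of such duplicated genes cannot be assigned with certainty. Among genes without a close copy, NABP1, a single-stranded DNA-binding protein, had 7805 in TS-RIP and 52516 in RIPctr, a ratio of -2.73 (-3.11 to -2.40), and CMYA5, a muscle protein, stood at -2.96, IL18BP at -2.60 and VAMP1 at -2.38. In NT the same genes were nearer 0, with NABP1 at -1.99, CMYA5 at -0.33, IL18BP at -0.73 and VAMP1 at -1.32. The NT means of CMYA5, IL18BP and VAMP1 were below the minimum. Under 5FdUR NABP1 stood at -1.70, CMYA5 at -1.22, VAMP1 at -1.13 and IL18BP, below the minimum there too, at -2.41. These genes were picked for their low interval bounds under RTX, so ratios nearer 0 in the other pairs do not show a difference between treatments.

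A list of 59 SR protein, CLK kinase and hnRNP genes had 44 members above the minimum with an entry of their own, 9 below it and 6, SRSF1 among them, in merged entries that were left out of the list's counts. Of the 44, 5 were lower and none was higher, beside 6% lower over all genes, and the median was 0.00. LUC7L3, a U1-associated factor, stood at -1.21, the kinases CLK2 and CLK4 at -0.91 and -0.78, TRA2A at -0.70 and RBM5 at -0.65. The same list had 3 lower with a median of 0.09 under 5FdUR and 7 lower with a median of -0.32 in NT, where LUC7L3 stood at -1.64. HNRNPA1 stood at 0.42, HNRNPF at 0.42 and HNRNPUL1 at 0.46, so the list held genes on both sides of 0. SRSF1, a splicing factor picked out after its values were seen and whose entry is merged with 2 unnamed genes, had 121899 in TS-RIP and 363382 in RIPctr, a ratio of -1.58 (-1.67 to -1.48), against -1.31 under 5FdUR and -0.84 in NT.

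The largest ratios above 0 among protein-coding genes were modest. CCDC74A had 8865 in TS-RIP and 3484 in RIPctr, a ratio of 1.32 (0.72 to 2.01) on 92 and 28 fragments. NPRL2, a subunit of the GATOR1 complex that restrains mTORC1, had 20718 in TS-RIP and 9582 in RIPctr, a ratio of 1.10 (0.73 to 1.51), against 0.17 under 5FdUR and 0.11 in NT. ZNF428 stood at 1.01 (0.71 to 1.34), CHCHD6, a component of the mitochondrial cristae complex, at 1.00, and MFAP2, a microfibril protein, at 0.94. Abundant mRNAs had narrower intervals. EEF2, the elongation factor that moves the ribosome along the mRNA, had 10860400 in TS-RIP and 6611940 in RIPctr, a ratio of 0.72 (0.70 to 0.73), and RPL3, a protein of the large ribosomal subunit, had 4766100 and 2807630, a ratio of 0.76 (0.74 to 0.79). ACTN4, an actin crosslinker, had 2138770 in TS-RIP and 1300210 in RIPctr, a ratio of 0.72 (0.68 to 0.75). EEF2 stood at 0.46 under 5FdUR and 0.37 in NT, RPL3 at 0.49 and 0.54, and ACTN4 at 0.45 and -0.03.

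RNAs known from earlier work as TS ligands were examined as a list of 8, all above the minimum, with a median of 0.32, against -0.01 under 5FdUR and -0.11 in NT. TYMS, which encodes TS, had 291883 in TS-RIP and 249763 in RIPctr, a ratio of 0.22 (0.14 to 0.31), against 0.04 under 5FdUR and 0.10 in NT. MYC stood at 0.13 (0.04 to 0.22), against -0.04 under 5FdUR and 0.09 in NT, and ISG15, an interferon-induced ubiquitin-like protein, at 0.42 (0.27 to 0.58), against 0.36 and -0.12. None of these 3 was past 1.5-fold, and ratios of this size were common: the upper quartile of all genes began at 0.24. KIF5B, a kinesin heavy chain, stood at 0.01 (-0.05 to 0.07). The zinc finger gene ZNF460 was lower, with 27656 in TS-RIP and 48534 in RIPctr, a ratio of -0.81 (-1.04 to -0.59), and it was lower under 5FdUR too, at -1.07. The 7SL entries RN7SL2 and RN7SL1 also belong to the list, at 0.73 and 0.48 under RTX against -0.95 and -0.98 in NT. The list medians therefore mix these large differences with the smaller ones of TYMS, MYC and ISG15. With both libraries set to the same total, TYMS stood at 0.11 and MYC at 0.02.

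Gene groups were compared by their counts of calls and medians, each beside the 2.58% higher, 6% lower and median of 0.04 over all genes. Counts are of members above the minimum, and members whose entry is merged with another gene that could carry the fragments were left out. Shares of intervals above or below 0 depend on level, so all genes are not a like comparator for an abundant group. The median interval width was 0.83 at means of 5000 to 20000 and 0.20 above 100000, and the median ratios were -0.06 and 0.14. Of the ribosomal protein mRNAs 73, and of the cytoskeletal genes 22, had means above 20000. The mRNAs of ribosomal proteins lay above the general level, with 5 of 74 higher, none lower and a median of 0.35 (of 86 listed, 3 were below the minimum and 9 merged), and the counting interval was above 0 for 65 of them, against 28% of all genes. RPS2 stood at 0.64 and RPSA at 0.61, while RPS27L, a paralogue of RPS27, stood at -0.28. Of 24 cytoskeletal genes (actins, actin-binding proteins, tubulins and keratins) 1 was higher, the actin crosslinker ACTN4, and the median was 0.38, with 20 intervals above 0 and none below, against 28% and 20.9% of all genes. Translation factors had 4 of 61 higher and 1 lower, EIF5A2 at -0.76, with a median of 0.20. EIF5B, which joins the ribosomal subunits, stood at -0.20 under RTX, 0.21 under 5FdUR and -1.68 in NT. Firmly higher were ACTN4, 2 of the 74 ribosomal protein mRNAs and 2 of the 61 translation factors, beside 0.299% of all genes.

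Among glycolysis enzymes 2 of 16 were higher, HK1 at 0.66 and PFKL at 0.59, with a median of 0.31, and PFKFB3 stood lowest at -0.41. Interferon-stimulated genes had 3 of 19 higher, USP18 at 0.89, IFI6 at 0.71 and IRF7 at 0.61, and none lower, with a median of 0.26, and 16 of the 40 listed did not reach the minimum. The antiviral sensor genes DDX58 and IFIH1 stood at -0.46 and -0.23 in the same list. Proteasome subunits had 1 of 31 higher, PSMB6 at 0.59, and nuclear-encoded respiratory chain mRNAs 3 of 63, NDUFS8 at 0.72, NDUFS7 at 0.59 and UQCRC1 at 0.59, with medians of 0.25 and 0.15. Of the higher calls, 1 of the 2 in glycolysis was firm, and no interferon, proteasome or respiratory chain call was.

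On the lower side, histones made in S phase, whose mRNAs end in a stem-loop without a poly(A) tail, had 14 of 31 entries lower, none higher and a median of -0.52, with 35 of the 72 listed below the minimum and 4 merged. H2BC11 had 11371 in TS-RIP and 23645 in RIPctr, a ratio of -1.05 (-1.40 to -0.72), and H3C10 stood at -1.01, while H2AC13 stood at 0.18 with an interval that spanned 0. The histone median was -0.36 under 5FdUR and -0.18 in NT. Numbered zinc finger genes, mostly repressors of transcription, had 39 of 230 lower and 3 higher, with a median of -0.20 (of 511 listed, 199 were below the minimum and 82 merged), from ZNF680 at -1.38 at one end to ZNF428 at the other. Immediate early genes, which respond to growth factors within minutes, had 6 of 29 lower, among them EGR1 at -0.74, FOS at -0.64 and KLF6 at -0.62, and a median of -0.12. Firmly lower were 4 of the 31 histone entries, 7 of the 230 zinc finger genes and none of the immediate early genes, beside 2.07% of all genes. Of 41 p53 targets 3 were lower, CCNG2 at -0.98, MDM2 at -0.70 and TNFRSF10D at -0.60, a share near the 6% of all genes. The median of the p53 targets was -0.09. Their counting interval was above 0 for 14 and below 0 for 17, against 28% and 20.9% of all genes. MDM2, a ubiquitin ligase, had 169791 in TS-RIP and 275026 in RIPctr, against a ratio of -0.57 under 5FdUR and 0.03 in NT, and CDKN1A, the cell cycle inhibitor p21, stood at 0.44 (0.38 to 0.51).

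Other groups had medians from -0.04 to 0.19, beside 0.04 over all genes. Folate and thymidylate enzymes had 0 of 30 called and a median of 0.15, with SHMT2 at 0.41, TK1 at 0.37 and DCK at -0.44. Genes of DNA replication had 1 of 43 lower and a median of 0.06, those of G2 and mitosis 0 of 45 called and -0.04, and cytosolic heat shock genes 0 of 19 called and 0.04. Mitochondrial ribosomal proteins had 0 of 66 called and 0.17, spliceosomal and snoRNP proteins 0 of 19 and 0.19, and sterol and fatty acid synthesis 0 of 28 and 0.10. Mitochondrial carriers had 2 of 31 higher and 1 lower with a median of 0.01, and genes of the integrated stress response and ER chaperones had 1 of 18 and 1 of 27 lower with medians of 0.08 and 0.04. Cell surface receptors had 2 of 45 lower, among them the endocytic receptor LRP1 at -1.02, and a median of 0.01. Laminins and integrins had 2 of 18 lower, LAMA5, merged with a microRNA gene, at -0.83 and ITGAV at -0.60. Their median was 0.16, and the counting interval was above 0 for 10 of the 18 and below 0 for 3. Genes of translocation into the endoplasmic reticulum and of glycosylation had 3 of 57 higher and 1 lower, with a median of 0.16. The interval was above 0 for 30 of the 57 and below 0 for 4, against 28% and 20.9% of all genes. ALG3 stood at 0.91 and ALG13, another glycosyltransferase of that pathway, at -1.37.

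**Figure D3:**
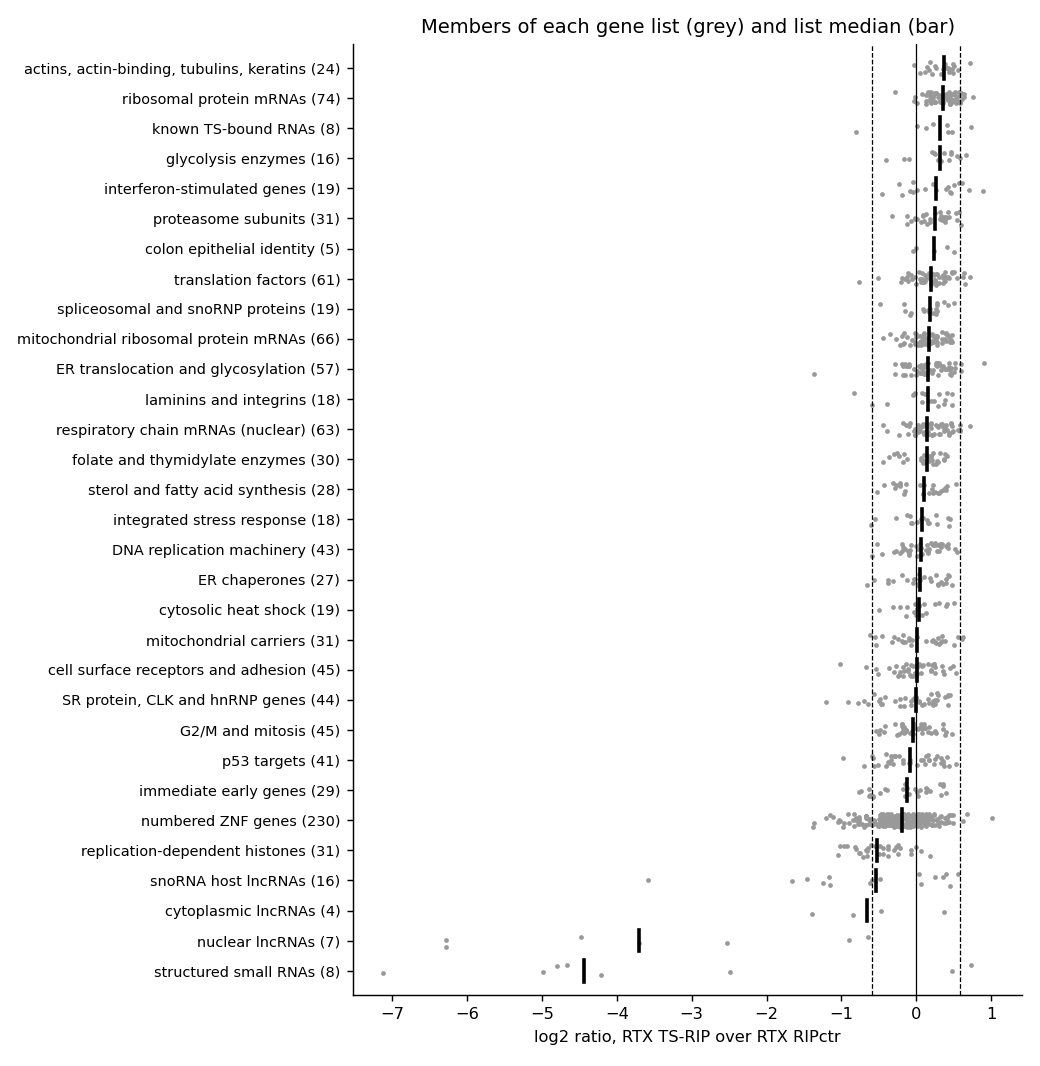
Ratios of RTX TS-RIP over RTX RIPctr (log2, x axis) for gene lists with at least 4 measured members; each point is a gene and the bar in each row is the median. Nuclear lncRNAs and structured small RNAs extend far below 0, and cytoskeletal genes (actins, actin-binding proteins, tubulins and keratins, median 0.38) and ribosomal protein mRNAs (0.35) have medians above the 0.04 of all genes.

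The ratio varied with the length and base composition of the transcript. Among 9220 protein-coding genes with an entry of their own, split by size into 3 equal groups, those with the shortest transcripts (295 to 2601 bases) had a median of 0.19 with 5.96% higher and 2.08% lower, and those with the longest (4703 to 34626 bases) a median of -0.10 with 0.39% higher and 8.52% lower. By GC content, split in the same way, the highest group (54.2% to 76.0%) had a median of 0.16 with 5.86% higher and 2.86% lower, and the lowest group (30.7% to 43.6%) a median of -0.09 with 0.36% higher and 8.75% lower. Short transcripts of high GC had a median of 0.29 with 10.1% of 1444 genes higher, and long transcripts of low GC a median of -0.18 with 12.3% of 1385 lower. Across genes, which are not independent replicates, Spearman's rho of the ratio was -0.39 with length and 0.34 with GC. On the GC-rich chromosome 19, 43 of 598 genes (7.19%) were higher and the median was 0.17. The part of length and GC in the values of the gene groups above was not tested.

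**Figure D4:**
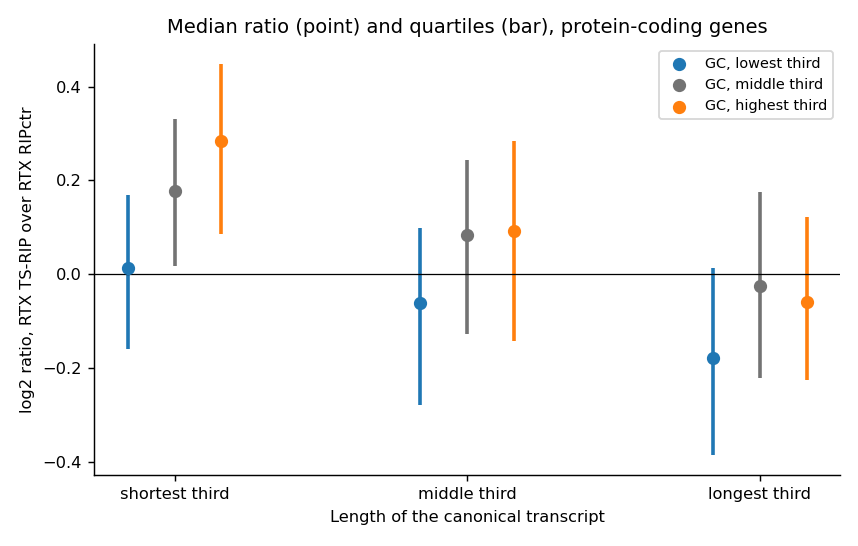
Median ratio of RTX TS-RIP over RTX RIPctr (log2, y axis) of protein-coding genes in 3 equal groups of transcript length, each split by 3 groups of GC content; points are medians and bars are quartiles. The median is highest for short transcripts of high GC (0.29) and lowest for long transcripts of low GC (-0.18).

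Because 7SL RNA belongs to the machinery for membrane and secreted proteins, mRNAs were also sorted by stretches of 19 residues with high mean hydrophobicity in the encoded protein, a simple count that does not call signal peptides. Proteins with 0, 1, 2 or 3, and 4 or more such stretches had median ratios of 0.05, 0.02, 0.02 and 0.02 under RTX, against 0.04, 0.01, 0.02 and 0.01 under 5FdUR and 0.00, 0.10, 0.16 and 0.19 in NT. The medians were flat in the RTX pair and climbed with the count in the NT pair. Among the shortest transcripts alone, proteins with 4 or more stretches had a median of 0.20 and those with 0 had 0.19 under RTX, against 0.26 and 0.06 in NT.

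The RTX ratios were set beside those of the other treatments, whose libraries are separate. Over 10176 genes above the minimum in both pairs, Pearson's r between RTX and 5FdUR ratios was 0.78 and Spearman's rho 0.68, and over 10010 genes r between RTX and NT was 0.49 and rho 0.34, as descriptions across genes that share base composition and length. In 5FdUR 1.11% of 10416 genes were higher and 6.04% lower, and in NT 1.76% of 10292 were higher and 4.63% lower. Of the genes lower under RTX and measured in both pairs, 284 were lower under 5FdUR (50.5% of 562 in RTX, 47.8% of 594 in 5FdUR) and 139 in NT (24.4% of 569 in RTX, 30.6% of 454 in NT). Among the higher calls, 33 were shared with 5FdUR (12.5% of 265 in RTX, 32% of 103 in 5FdUR) and 17 with NT (7.2% of 236 in RTX, 10.4% of 163 in NT). Of the 524 genes lower under RTX and above the minimum in all 3 pairs, 82 were lower in all 3, and of the 235 higher under RTX, 0 were higher in all 3. Most of the 235 lay on the same side of 0 elsewhere: 41 (17.4%) were not above 0 in NT and 15 (6.38%) under 5FdUR. For the 524, 122 (23.3%) and 23 (4.39%) were not below 0. The 236 higher calls measured in NT had a median ratio of 0.66 under RTX, close to the 1.5-fold cut, and 0.24 in NT.

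Differences of at least 1 between the RTX and NT ratios were found in 28 of 10010 genes upward and 113 downward. Between RTX and 5FdUR they were found in 19 of 10176 genes upward and 32 downward. Against NT, the downward side included RMRP, with a difference of -2.78, and TERC, with -2.59. HSP90AB1, a cytosolic chaperone, had 8869700 in TS-RIP and 6642060 in RIPctr under RTX, a ratio of 0.42, against 5642880 and 8751420 in NT, a ratio of -0.63. HSP90AA1, its inducible paralogue, had 11494400 and 11180700 under RTX, a ratio of 0.04, against 5838810 and 10042400 in NT, a ratio of -0.78. For HSP90AA1 the difference between RTX and NT was 0.82, below 1. Under 5FdUR these 2 chaperones stood at 0.43 and 0.23. EZR, which links actin to the membrane, stood at 0.38 under RTX, 0.25 under 5FdUR and -0.39 in NT. Its difference between RTX and NT was 0.77, also below 1. Heat shock genes as a list had a median of 0.04 under RTX, 0.14 under 5FdUR and -0.35 in NT, and genes of G2 and mitosis -0.04, 0.11 and -0.39.

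**Figure D5:**
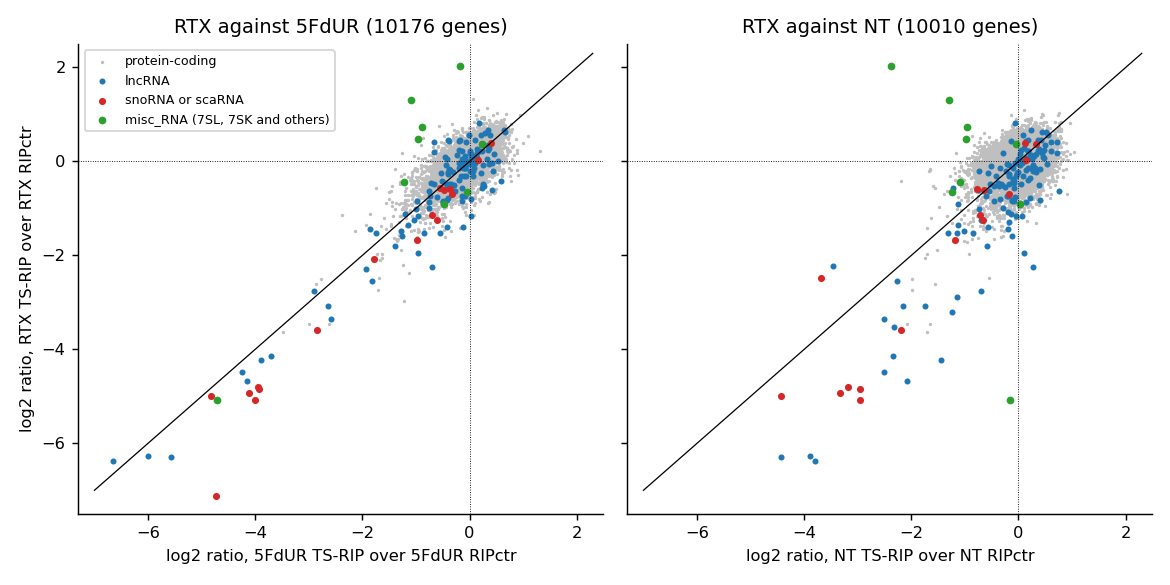
Ratios of TS-RIP over RIPctr (log2) under RTX (y axis) against those under 5FdUR (10176 genes) and NT (10010 genes) on the x axes; the line marks equal ratios. The points lie closer to the line for 5FdUR (Pearson's r 0.78) than for NT (0.49), with RN7SL5P and RN7SL4P above it in both panels.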

How the data were processed

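RNA from TS-RIP and RIPctr of RTX, 5FdUR and NT cells was sequenced, with 1 library in each group. The authors trimmed rRNA-depleted, strand-specific reads with fastp, removed ribosomal reads with BWA, aligned the rest to GRCh38 with HISAT2, filtered for uniquely mapped reads through a minimum mapping quality of 1 and counted fragments over GENCODE 34 genes with the Cufflinks suite, whose versions are not given in the sources used here. The deposited table holds a signal, fragment counts scaled by the authors between libraries and described as FPKM, but without length correction. Each library's value of 1 fragment was recovered (96.4 in RTX TS-RIP and 124 in RTX RIPctr), and 100% of values below 200 fragments were whole within 0.05. The authors' subsamples, 50.0% of the fragments of each library, served as an alternative, and 25 other columns, which hold other RNA libraries, means and SDs, were not used.

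Ratios were log2 of both values plus a pseudocount of 100, for genes with a mean above 5000, a minimum that a gene high in either library can pass. Intervals are 95% Clopper-Pearson intervals on the fragments. They cover counting error only, since PCR copies are not independent molecules. Intervals of differences between treatments come from the 4 fragment counts. An exact binomial test of the fragments, which compares 2 libraries and not conditions, gave 4394 of 10353 genes past a Benjamini-Hochberg threshold of 0.05 (2557 higher and 1837 lower). Types, lengths and GC content come from GENCODE 44 on GRCh38. In all, 9368 entries above the minimum held 1 gene, 967 held several and 18 had no matching transcript. The 233 named genes were the farthest interval bounds in each direction by gene type, the most abundant genes, and the highest and lowest 3 members of each list, with all measured members of the lists of known TS-bound RNAs and of structured small RNAs, and SRSF1 was added after its values were seen. Some members of the lists are not reported here. The members and the 35 lists were chosen with earlier results of these data known. Alternatives were the pseudocount, minimum, scaling, subsamples and entries of 1 gene. The interval and ratio steps were tested on simulated data. Python 3.11.15, numpy 2.4.6, pandas 2.3.3, scipy 1.17.1, matplotlib 3.10.9, R 4.3.3 and edgeR 4.0.16 (TMM factors) were used.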

Additional observations from a re-analysis of the deposited data

Results flagged for a closer look

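Several genes had calls on opposite sides in the RTX pair and in another pair of TS-RIP and RIPctr, with 1 library each, and the difference was not tested. RN7SL5P had a ratio of 2.03 under RTX and -2.38 in NT. RN7SL4P had 1.30 under RTX, -1.09 under 5FdUR and -1.29 in NT, and RN7SL2 had 0.73 under RTX, -0.89 under 5FdUR and -0.95 in NT. ASF1A, a histone chaperone, had 0.59 under RTX (100 and 51 fragments in TS-RIP and RIPctr) and -0.65 in NT. In the other direction, LINC00294 had -0.63 under RTX and 0.75 in NT, DGKE, a lipid kinase, had -0.70 and 0.91, and B3GNT5, a glycosyltransferase, had -0.69 and 0.61. The counting intervals of ASF1A, LINC00294, DGKE and B3GNT5 under RTX each reached inside 1.5-fold.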

How the results depend on the processing

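No paired analysis was possible because each group has 1 library, and no library could be left out for the same reason. The authors' subsamples, a pseudocount of 10, the median of protein-coding genes set to 0 and the limit to entries of 1 gene kept the counts within 1.5 times their reported values. The first 3 of these kept each group median between the medians of its members' lower and upper counting bounds. Over all genes that range was -0.20 to 0.26, so staying within it says little about a median of many genes. With the exact binomial test added to the size of the ratio, the higher and lower counts also stayed within 1.5 times. That test reads the same fragments as the ratio, so it is not a separate check of the calls. Scaling both libraries to the same total shifted all ratios by -0.11, so that 89 genes were higher, 932 lower and 10 firmly higher, and medians were -0.12 for SR proteins, CLK kinases and hnRNPs, 0.26 for cytoskeletal genes, 0.13 for colon markers, -0.0783 for heat shock genes, 0.20 for glycolysis, 0.15 for interferon-stimulated genes and 0.24 for ribosomal proteins. TMM factors gave 418 higher and 60 firmly higher. With a minimum of 500, 578 genes were higher, 1985 lower and 625 firmly lower, and medians were -0.76 for lncRNAs and -0.41 for cytoplasmic lncRNAs. With a minimum of 20000, 147 genes were higher, 210 lower and 89 firmly lower, and medians were -0.0495 for cytoplasmic lncRNAs, -4.48 for nuclear lncRNAs and 0.0625 for snoRNA hosts. Without a minimum, 2635 genes were higher, 7964 lower and 773 firmly lower, and medians were -1.17 for lncRNAs, -1.17 for misc_RNA, 0.00066 for colon markers, 0.11 for interferon-stimulated genes, -2.54 for nuclear lncRNAs and -2.37 for structured small RNAs. The cause was not tested, beyond the larger or smaller set of genes that each minimum admits. A pseudocount of 1000 gave -3.87 for structured small RNAs. Of 110 named genes past 1.5-fold, 110 stayed past it with a pseudocount of 10, 98 with 1000, 90 at the same total, 98 with the median at 0, 104 with TMM factors and 100 in the subsamples. HSP90AA1 stood at -0.07 with the same total, and SNORD3A at -6.03 in the subsamples. Calls varied with level: 13.1% of 3134 genes at means of 5000 to 20000 were lower and 3.83% higher, against 0.799% and 2.8% of 2252 genes above 100000, and the cause was not tested. The median width of the counting interval was 0.83 at the lower and 0.20 at the higher level.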
